A study of Mus musculus with 32 samples.

Results

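Tumour-associated macrophages are represented here by 10 genes that mark their identity and state: Adgre1, Cd68, C1qa, C1qb, C1qc, Trem2, Apoe, Spp1, Gpnmb and Lyz2. The genes were chosen by name, as widely used macrophage markers and with earlier results of these data known, and were followed in all 32 libraries; they are 10 of the 54446 genes in the count tables, and all 10 passed the filter on low counts in each experiment. The libraries came from tumours that a mouse liver cancer line, BNL-MEA, had formed in the livers of immune-competent BALB/c mice. Regorafenib, a multikinase inhibitor, was given at 5 mg/kg/day (low dose) or 20 mg/kg/day (high dose), and each experiment had its own vehicle group. The dose experiment held 4 vehicle, 3 low-dose and 3 high-dose tumours. The DC-101 experiment held 4 vehicle tumours, 3 low-dose tumours and 3 tumours treated with DC-101, an antibody against mouse VEGFR2, at 800 µg on days 1, 3 and 5. In the anti-PD1 experiment there were 3 tumours each of vehicle, low dose, anti-PD1 antibody, and low dose with anti-PD1 (combination). The experiment was given as a batch in the labels and each was fitted separately, and the age and sex of the mice were not given in the sources used here. Because whole tumours were sequenced, fewer macrophages and less RNA per macrophage cannot be told apart.

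Macrophages that settle in a tumour clear dead cells, take up lipid and lipoproteins and tune the local immune response, and in the liver they stand beside the resident Kupffer cells. Adgre1 encodes the surface protein F4/80 and Cd68 a lysosomal membrane protein, the classical pan-macrophage markers of the mouse. C1qa, C1qb and C1qc encode the chains of C1q, the recognition molecule that starts the classical complement pathway and that tissue macrophages make in quantity. Trem2 is a lipid-sensing receptor that signals through Tyrobp, and Apoe, Spp1 (osteopontin) and Gpnmb, a lysosomal glycoprotein, belong with it to the lipid-associated macrophage state. Lyz2 encodes lysozyme of myeloid cells. Several members are not exclusive to macrophages: hepatocytes make Apoe, cholangiocytes and tumour cells can make Spp1, and neutrophils carry Lyz2. In these whole tumours the cell source was not measured for any member, Gpnmb included.

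Total counts were between 16.8 M and 27.7 M per library. The amount of liver tissue RNA differed widely, as the mean log2 CPM (read counts scaled to a common library size by TMM) of 19 hepatocyte genes was between 0.36 and 12.3 over the 32 libraries. In the dose experiment this hepatocyte level was 5.08 to 8.15 in vehicle, 6.33 to 10.1 at the low dose, and 12.3, 9.76 and 7.03 in high-dose replicates 1, 2 and 3. High-dose replicate 1 also had a TMM factor of 0.678 and 5.37% of its counts on mitochondrial genes. General macrophage markers were present in every library: the mean log2 CPM of 20 other macrophage genes, called the macrophage core here, was 7.04 to 8.07 in the DC-101 and anti-PD1 experiments, 6.74 to 7.23 in the vehicle tumours of the dose experiment, 7.47 to 7.75 at the low dose and 5.14 to 6.13 at the high dose.

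The levels of the 10 genes can be compared with each other only per length, so CPM was divided by the exonic length in kilobases. Across the 11 vehicle tumours the order of the medians was Apoe (1553 CPM per kb, range 708 to 4303), Lyz2 (1552, range 892 to 4636), Spp1 (859, range 315 to 2092), C1qa (613, range 371 to 1549), C1qb (463, range 257 to 1027), C1qc (274, range 145 to 515), Cd68 (118, range 70.6 to 176), Adgre1 (33.9, range 25.8 to 56.8), Trem2 (15.7, range 6.99 to 31.0) and Gpnmb (0.619, range 0.402 to 5.32). Within single experiments the order of the vehicle means could differ. In the dose experiment Spp1 (1282) was above Lyz2 (1055), and in the anti-PD1 experiment C1qa (1007) was above Spp1 (882). Neighbours in the order of the medians overlapped, except that every Cd68 value was above every Adgre1 value and every Trem2 value above every Gpnmb value. Gpnmb was therefore the scarcest member, with raw counts of 5 to 1050 per library. It was also the most variable between tumours of 1 group, with a within-group SD of 1.20 on the log2 CPM scale, against 0.72 for Apoe, 0.67 for Lyz2 and 0.28 for Cd68. Over all 32 libraries the highest Gpnmb CPM was 193-fold the lowest, and the corresponding range was 45.3-fold for Lyz2 and 5.52-fold for Cd68.

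**Figure D1:**
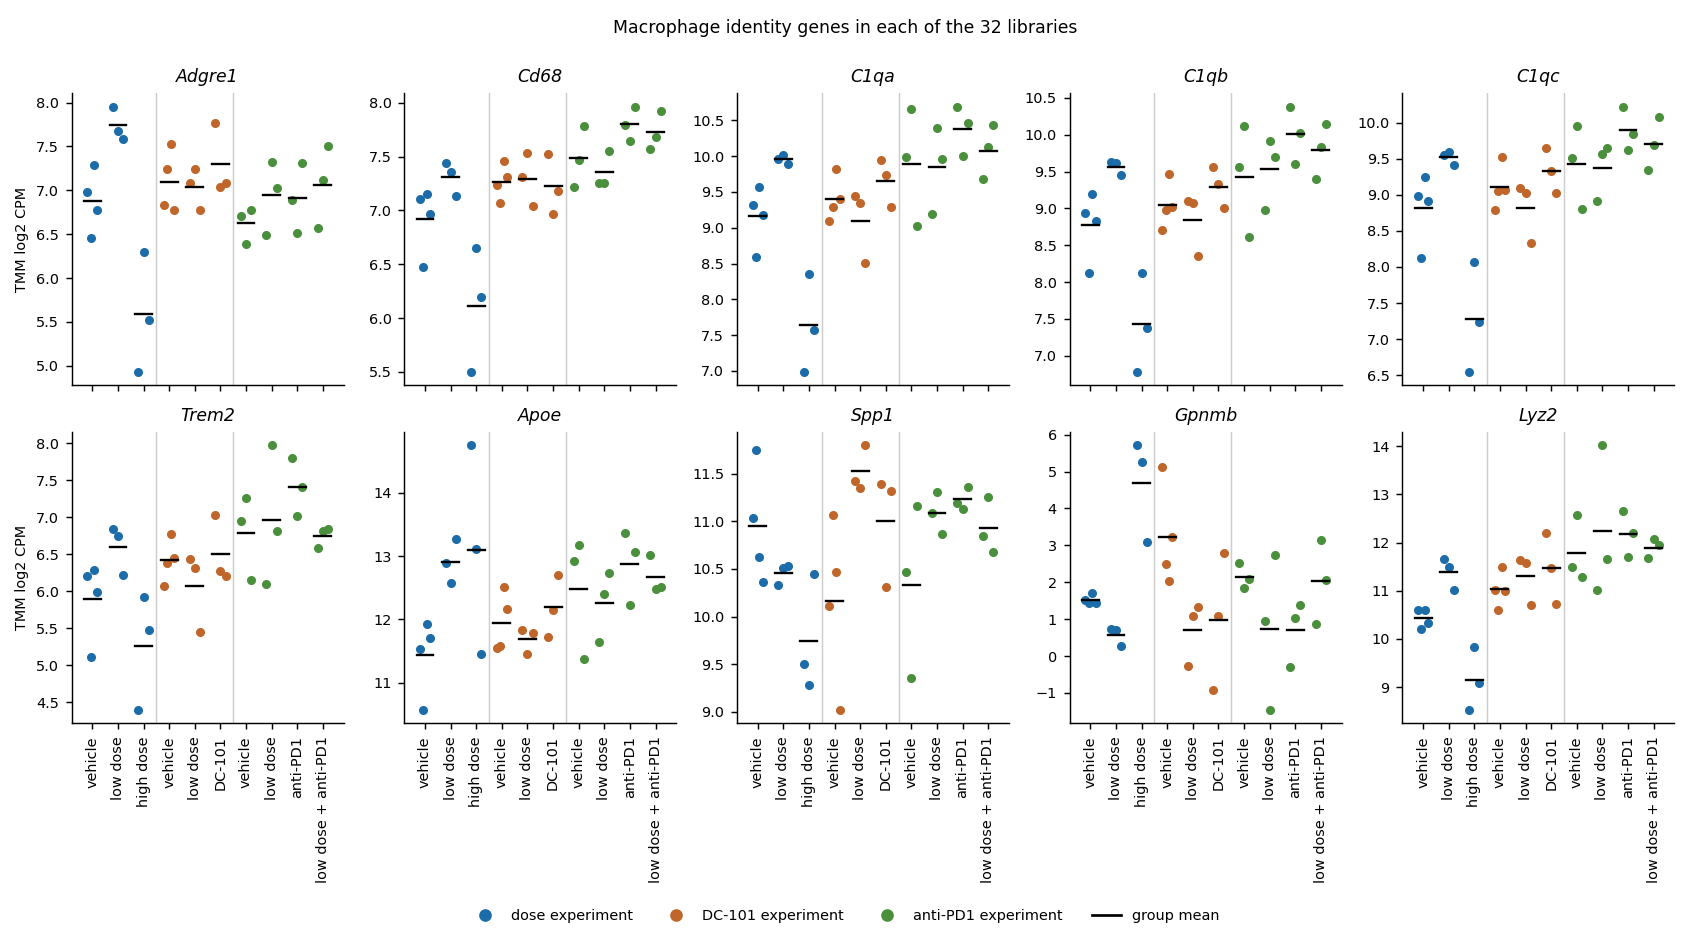
TMM log2 CPM of each of the 10 genes in each of the 32 libraries, with points for single tumours in the 10 groups and bars for group means. Gpnmb lies between 1.43 and 1.69 (2.62 and 3.16 CPM) in the vehicle tumours of the dose experiment. At the high dose, where the C1q genes are lowest, it lies between 3.08 and 5.72 (8.39 and 52.5 CPM).

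Most members lie apart in the genome (GRCm38 coordinates of a Gencode annotation): Adgre1 (ENSMUSG00000004730.15) at chr17:57358691-57483527 on the plus strand, Cd68 (ENSMUSG00000018774.13) at chr11:69664213-69666153 on the minus strand, Trem2 (ENSMUSG00000023992.14) at chr17:48346401-48354147 on the plus strand and Apoe (ENSMUSG00000002985.16) at chr7:19696109-19699188 on the minus strand. Spp1 (ENSMUSG00000029304.14) is at chr5:104435118-104441050 on the plus strand, Gpnmb (ENSMUSG00000029816.10) at chr6:49036546-49070929 on the plus strand and Lyz2 (ENSMUSG00000069516.8) at chr10:117277331-117282321 on the minus strand. Spp1 shares 309 bp with an exon of Gm42793 on the same strand, so reads there could not be assigned to either gene, and Lyz2 has a near-identical neighbour, Lyz1, with which reads can be confused. The C1q genes form a cluster of 18675 bp on the minus strand of chromosome 4: C1qb (ENSMUSG00000036905.8) at chr4:136880129-136886187, C1qc (ENSMUSG00000036896.5) at chr4:136889804-136893065 and C1qa (ENSMUSG00000036887.5) at chr4:136895917-136898803, with gaps of 3616 bp and 2851 bp between them. Because C1qb and C1qc fell together at the high dose and Gpnmb rose there, the sequence ahead of their start sites is shown as examples. It is read 5′ to 3′ on the strand of the gene from RefSeq (GRCm38.p6). Capitals mark GAGGAA, the core letters bound by the myeloid factor PU.1, and CATGTG, the M-box, each found on either strand.
C1qb: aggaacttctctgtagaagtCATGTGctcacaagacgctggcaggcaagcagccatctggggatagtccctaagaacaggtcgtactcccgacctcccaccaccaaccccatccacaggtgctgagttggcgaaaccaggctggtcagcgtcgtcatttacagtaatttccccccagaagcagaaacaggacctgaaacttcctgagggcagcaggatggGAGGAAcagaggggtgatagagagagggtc
C1qc: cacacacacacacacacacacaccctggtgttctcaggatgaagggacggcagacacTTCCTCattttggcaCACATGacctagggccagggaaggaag
Gpnmb: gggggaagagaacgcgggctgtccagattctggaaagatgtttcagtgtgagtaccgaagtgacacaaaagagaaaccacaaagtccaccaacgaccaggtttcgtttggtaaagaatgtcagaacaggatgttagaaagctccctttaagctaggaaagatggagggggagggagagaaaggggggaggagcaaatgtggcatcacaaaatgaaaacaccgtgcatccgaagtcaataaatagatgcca
The C1qb stretch is chr4:136886201-136886450 on the minus strand, the C1qc stretch chr4:136893066-136893164 on the minus strand and the Gpnmb stretch chr6:49036268-49036517 on the plus strand. The C1qc stretch is shorter, with 99 bases, and stops at the Gencode start, short of the RefSeq start site at position 136892914. Counted from the RefSeq start site, C1qb held CATGTG at -230 and GAGGAA at -30. C1qc held GAGGAA at -193 and CATGTG at -178, both on the opposite strand and so printed as their reverse complements. Of 32851 promoters of 300 bases (250 before the start and 50 after), 28.3% held GAGGAA and 14.2% held CATGTG. Among the 8 promoters matched, GAGGAA was in 6, those of Cd68, C1qb, C1qc, Trem2, Apoe and Spp1, and not in those of Gpnmb and Lyz2. CATGTG was in those of C1qb and C1qc and in no other. The AP-1 motif TGANTCA, present in 7.81% of promoters, lay at position 8 after the Gpnmb start and also in the promoters of Cd68 (2 places) and Trem2. Promoter sequence was matched for 8 of the 10 members, and these matches of letters are a description only.

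High-dose regorafenib changed 6 of the 10 genes against vehicle, in opposite directions. Adgre1, C1qa, C1qb, C1qc and Lyz2 were 2.28- to 2.74-fold lower, and Gpnmb rose 11.8-fold. Among all 16525 genes tested 15.6% changed, 8.8% higher and 6.82% lower (edgeR quasi-likelihood test, adjusted p under 0.05, for which genes are called changed throughout). The median change of the 10 genes was -1.20 on the log2 scale, against 0.02 over all genes tested. An unadjusted p under 0.05 was reached by 9 members and 40.1% of all genes, and the groups did not overlap for 5 members and 28.3% of all genes.

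Among the pan-macrophage markers, Adgre1 was at 126, 87.5, 156 and 109.8 CPM in the 4 vehicle tumours and at 30.5, 78.8 and 45.9 CPM in the 3 high-dose tumours. Each high-dose value was below each vehicle value, and the log2 change was -1.21 (SE 0.32, adjusted p = 0.0433 by edgeR). Cd68 was at 138, 88.7, 142 and 125 CPM in vehicle and 45.3, 100.6 and 73.0 CPM at the high dose. Here high-dose replicate 2 was within the vehicle range, and the log2 change of -0.76 (SE 0.27, edgeR adjusted p = 0.0697) did not pass the threshold.

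The 3 C1q chains fell by nearly the same amount. C1qa was at 637, 386, 759 and 579 CPM in vehicle and at 127, 328 and 191 CPM at the high dose, without overlap (log2 change -1.45, SE 0.33, edgeR adjusted p = 0.0361). C1qc was at 506, 279.8, 605 and 479.65 CPM in vehicle and at 93.7, 267 and 151 CPM at the high dose, again without overlap (log2 change -1.45, SE 0.37, edgeR adjusted p = 0.0412). C1qb was at 490.2, 279, 585 and 455 CPM in vehicle and at 110.2, 279 and 166 CPM at the high dose, so that high-dose replicate 2 met vehicle replicate 2 (log2 change -1.29, SE 0.34, edgeR adjusted p = 0.0429). Within each gene the highest high-dose value was that of replicate 2 and the lowest that of replicate 1. The ratio of C1qa to C1qb CPM, which does not depend on library scaling, was 1.11 to 1.44 over the 32 libraries, with 1.27 to 1.38 in the vehicle tumours of the dose experiment and 1.15 to 1.17 at the high dose.

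Lyz2, the lysozyme gene, also fell. It was at 1551, 1174, 1546 and 1285 CPM in vehicle and at 367, 916 and 546 CPM at the high dose. No values overlapped, and the log2 change was -1.19 (SE 0.31, edgeR adjusted p = 0.0428).

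The genes of the lipid-associated state did not move as 1 group. Gpnmb was at 2.80, 2.63, 3.16 and 2.62 CPM in vehicle (46 to 86 reads) and at 52.5, 38.5 and 8.39 CPM at the high dose (927, 1050 and 214 reads). The vehicle tumours were nearly equal and every high-dose tumour was above them, with a log2 change of 3.56 (SE 0.51, edgeR adjusted p = 0.0159). High-dose replicate 3, whose hepatocyte level of 7.03 was within the vehicle range, had the smallest rise. Replicate 1 had the largest CPM, but this rested on its TMM factor of 0.678. Replicate 2 held more Gpnmb reads at a like total count (26.8 M against 26.1 M in replicate 1). Why the replicates differed was not tested.

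Apoe, the lipoprotein component, was at 2962, 1514, 3907 and 3319.6 CPM in vehicle and at 27598, 8801 and 2786 CPM at the high dose. Replicates 1 and 2 were above every vehicle tumour and replicate 3 was among them, so the groups overlapped and the log2 change of 2.16 (SE 0.64, edgeR adjusted p = 0.0505) did not pass. The 3 values had the order of the hepatocyte level in the same libraries, and with that level as a covariate the Apoe change was 0.56. Without high-dose replicate 1 the Apoe change was 0.98, and without replicate 3 it was 2.57 and passed the edgeR threshold. DESeq2 called Apoe as well, and limma voom did not.

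Spp1, the secreted matrix protein osteopontin, was at 2099.5, 3447, 1584 and 1322 CPM in vehicle and 724, 623 and 1400.0 CPM at the high dose. Replicate 3 was within the vehicle range, and the log2 change of -1.21 (SE 0.38, edgeR adjusted p = 0.0559) did not pass. Trem2 was at 73.6, 34.6, 77.7 and 63.6 CPM in vehicle and 20.9, 60.7 and 44.3 CPM at the high dose. The groups overlapped, with a log2 change of -0.57 (SE 0.38, edgeR adjusted p = 0.283). Over the alternative fits the Trem2 value was -0.93 to -0.083.

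The number of changed members depended on single libraries and on the fit. With the replicate block or only the compared groups in the fit none passed by edgeR, and without the filter on low counts Gpnmb alone did. Without high-dose replicate 1 only C1qa and Gpnmb passed the edgeR threshold, and without any 1 of the 4 vehicle libraries none did. With the hepatocyte level as a covariate none passed, the Gpnmb change being 2.68 and the edgeR adjusted p values of the 6 genes 0.060 to 0.225. DESeq2 called 9 members and limma voom 6. Scaling by total counts moved the median change of all genes by -0.15 and left Gpnmb as the only member past the threshold, while the direction of each of the 10 genes was the same in all alternative fits of this comparison.

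**Figure D2:**
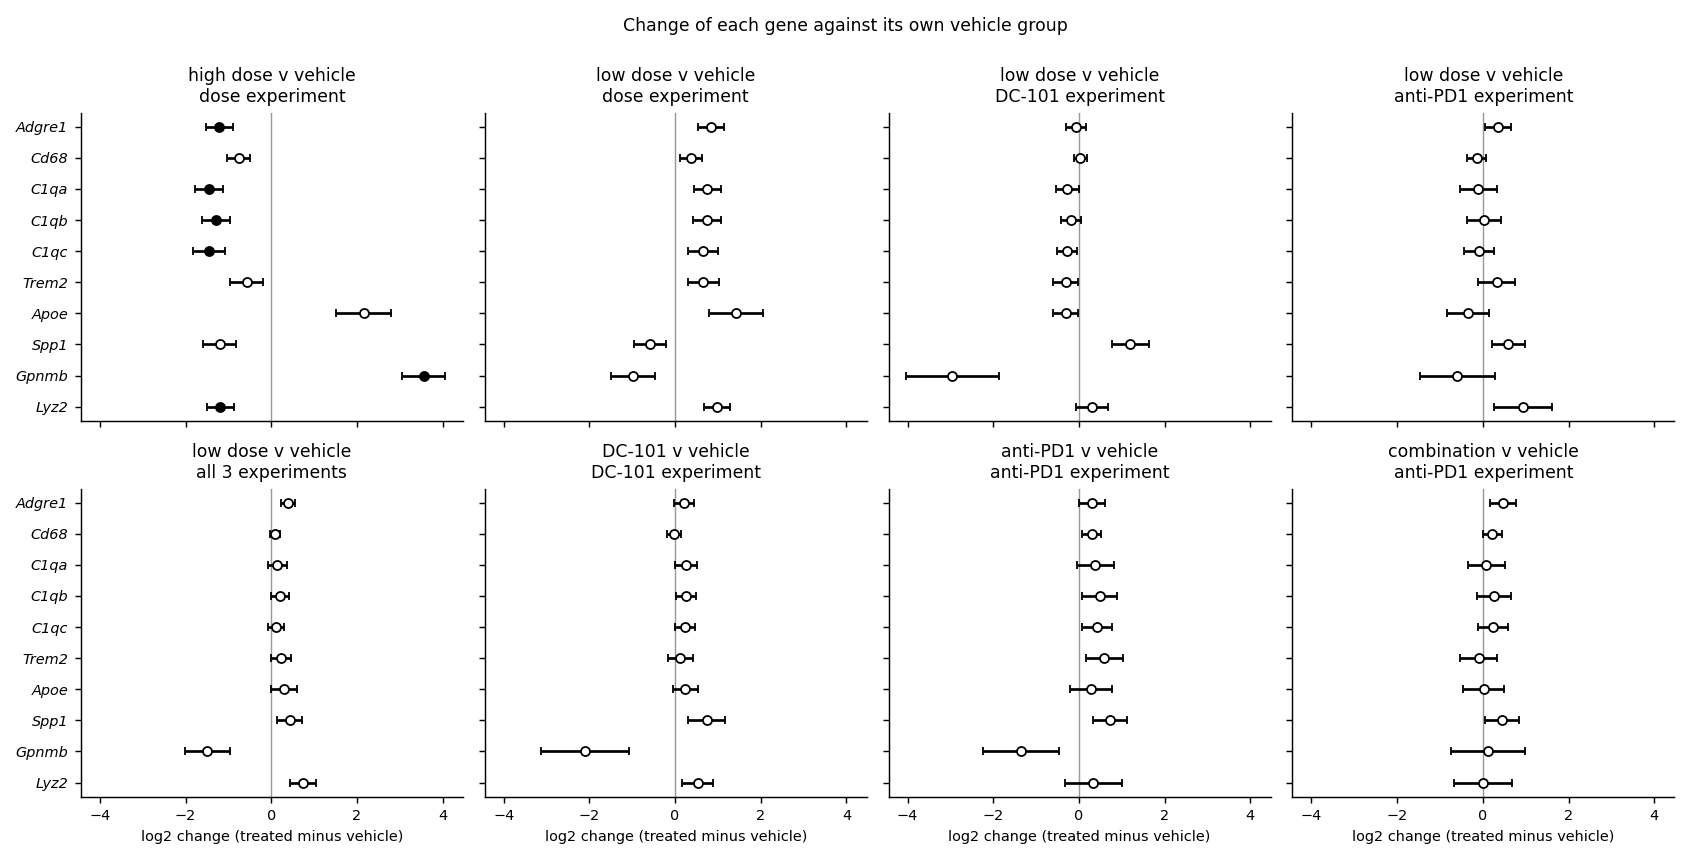
Log2 change of each of the 10 genes against vehicle for each treatment, with bars of 1 SE and filled points for genes past an edgeR adjusted p of 0.05. The filled points all belong to the high dose, where Gpnmb lies at 3.56 and C1qa at -1.45.

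High dose and low dose differed in 6 members, Adgre1, the 3 C1q chains, Lyz2 and Gpnmb, in a comparison that shares the high-dose tumours with the preceding one. Of all genes, 4.22% differed, 1.74% higher and 2.48% lower at the high dose, 29.3% had an unadjusted p under 0.05 (8 members) and 27.8% did not overlap (8 members). The low-dose tumours held Adgre1 at 248, 205 and 192.5 CPM, above every high-dose value, and the log2 difference was -2.06 (SE 0.34, edgeR adjusted p = 0.0188). C1qa was at 1000.1, 1034 and 946 CPM at the low dose, and the log2 difference was -2.20 (SE 0.36, edgeR adjusted p = 0.0179). C1qb, at 703 to 791 CPM at the low dose, was 4.10-fold lower at the high dose, and C1qc, at 684 to 769.9 CPM, was 4.31-fold lower (edgeR adjusted p = 0.0230 and 0.0256).

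Lyz2 was at 3234, 2887 and 2069.7 CPM at the low dose and 4.48-fold lower at the high dose (log2 difference -2.16, SE 0.33, edgeR adjusted p = 0.0153). Gpnmb was at 1.57, 1.54 and 1.14 CPM at the low dose, from 29 to 45 reads, and 23.3-fold higher at the high dose (log2 difference 4.54, SE 0.60, edgeR adjusted p = 0.00785). Cd68 (log2 difference -1.12, SE 0.28, adjusted p = 0.0588) and Trem2 (-1.23, SE 0.41, adjusted p = 0.102) were lower in every high-dose tumour than in every low-dose tumour but did not pass the edgeR threshold. Apoe, at 7559, 6068 and 9914 CPM at the low dose, and Spp1, at 1291, 1460.3 and 1482 CPM, overlapped between the doses. Without low-dose replicate 1 or 2, no member passed in this comparison by edgeR. With the replicate block or only the compared groups in the fit none passed, with total-count scaling 2 did, and with the hepatocyte level as a covariate 6 did.

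Low dose against vehicle in the dose experiment changed no member by edgeR, DESeq2 or limma voom, in a comparison where 0% of all genes passed by edgeR. The adjusted p values of the 10 genes were 0.816 to 0.991. The log2 change was above 0 for 8 of the 10 genes, as for 50.1% of all genes, with a median of 0.71 against 0.00 for all genes. At an unadjusted p under 0.05 there were 4 members, Adgre1 (log2 change 0.85, SE 0.31), C1qa (0.75, SE 0.32), C1qb (0.75, SE 0.32) and Lyz2 (0.97, SE 0.30), where 4.94% of all genes reached it.

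Tumours of the low dose and vehicle groups did not overlap for 7 members, against 13.9% of all genes. Adgre1, C1qa, C1qb, C1qc, Apoe and Lyz2 were higher in each low-dose tumour than in each vehicle tumour, and Gpnmb was lower in each. The Apoe value of 1.42 (SE 0.64) and the Gpnmb value of -0.98 (SE 0.51) on the log2 scale came with wide errors. Other lists shifted with the members in this comparison, with no gene past the edgeR threshold. All 20 genes of the macrophage core (median log2 change 0.55), all 19 measured hepatocyte genes (1.48) and all 10 T cell genes (0.84) were above 0, and 9 of 10 endothelial genes were below 0 (median -1.08). The hepatocyte level was above the vehicle range of 5.08 to 8.15 only in low-dose replicate 3 (10.1). With the hepatocyte level as a covariate no member passed by edgeR, and the changes were -1.17 for Gpnmb, -0.47 for Spp1 and 0.47 to 1.09 for the other 8.

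The other 2 experiments repeated the low dose with their own vehicle tumours, and no member passed in either by edgeR. Liver tissue moved with both comparisons, in opposite directions. The mean hepatocyte level was 2.95 in vehicle and 7.93 at the low dose in the DC-101 experiment, where the groups overlapped. It was 8.35 and 6.35 in the anti-PD1 experiment, without overlap (8.22 to 8.53 against 4.77 to 7.51). In the DC-101 experiment, where 0.0248% of all genes passed, the members at an unadjusted p under 0.05 were Spp1 and Gpnmb (17.1% of all genes). They were also the members whose groups did not overlap (16.4% of all genes). Spp1 was at 1105, 2151, 1415 and 519 CPM in vehicle and 2739, 2617 and 3563 CPM at the low dose, each low-dose tumour above each vehicle tumour (log2 change 1.20, SE 0.43, edgeR adjusted p = 0.219). Gpnmb was at 34.6, 5.49, 4.03 and 9.35 CPM in vehicle and 0.732, 2.05 and 2.397 CPM at the low dose, each lower (log2 change -2.95, SE 1.08, edgeR adjusted p = 0.228).

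DESeq2 called both genes and limma voom neither. Vehicle replicate 1 set much of the Gpnmb value, which was -1.87 without it. The other 8 members had log2 changes of -0.31 to 0.31, and their groups overlapped. Marker lists moved in this comparison as well. The endothelial level was lower at the low dose (3.77 to 4.14 against 4.70 to 5.82 in vehicle). Higher levels were those of Kupffer cells (2.74 to 4.48 against 0.35 to 2.61), monocytes (5.87 to 6.80 against 5.39 to 5.66) and complement partners (6.78 to 7.48 against 5.51 to 6.59). The remaining lists, the macrophage core among them, overlapped.

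In the anti-PD1 experiment, where 0% of all genes passed by edgeR, no member reached an unadjusted p under 0.05 at the low dose (11.8% of all genes did), and DESeq2 and limma voom called none. Lyz2 was at 2871, 6101 and 2504 CPM in vehicle and at 2059.9, 16633 and 3237 CPM at the low dose, so its log2 change of 0.93 (SE 0.68) rested on replicate 2 and was -0.53 without it. The paralogue Lyz1 was also highest in that library, at 101.1 CPM against a median of 6.47 over all libraries. Trem2 was highest there too, at 252 CPM against 68.2 and 113 in the other two low-dose tumours. Gpnmb was at 5.64, 3.50 and 4.14 CPM in vehicle and 1.84, 0.272 and 6.64 CPM at the low dose, overlapping (log2 change -0.60, SE 0.87, and -0.062 without low-dose replicate 2 or -2.03 without replicate 3).

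A fit over the 3 experiments with the experiment as a term called no member for the low dose by edgeR, where 1.77% of all genes passed. Lyz2 (log2 change 0.74, SE 0.30, adjusted p = 0.238), Adgre1 (0.38, SE 0.16, adjusted p = 0.246) and Gpnmb (-1.49, SE 0.53, adjusted p = 0.156) had an unadjusted p under 0.05, as 16% of all genes did. Gpnmb was called by DESeq2 and not by limma voom. Without replicate 2 of the low dose in the anti-PD1 experiment the Lyz2 value was 0.35. The other members lay between 0.09 for Cd68 and 0.43 for Spp1, and their directions rested on single experiments. Without the dose experiment Cd68, C1qa, C1qb, C1qc, Trem2 and Apoe were below 0 (-0.33 for Apoe to -0.025 for Trem2), and without the DC-101 experiment Spp1 was at -0.024.

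Whether the low-dose change differed between experiments was tested as an interaction, which 0% of all genes passed by edgeR and no member by DESeq2 or limma voom. Its unadjusted p was 0.0095 for Apoe, 0.0308 for Spp1 and 0.0402 for Adgre1 (edgeR adjusted p = 0.424, 0.487 and 0.506), and 9.52% of all genes were under 0.05. The single-experiment values were 1.42, -0.31 and -0.35 for Apoe, -0.58, 1.20 and 0.59 for Spp1 and 0.85, -0.07 and 0.35 for Adgre1, each in the order dose, DC-101, anti-PD1.

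DC-101, which blocks the VEGF receptor that regorafenib also inhibits, changed no member against vehicle by edgeR, DESeq2 or limma voom, and none at an unadjusted p under 0.05 (0% of all genes adjusted and 13.2% unadjusted by edgeR). The log2 changes were 0.21 for Adgre1 (SE 0.24), -0.03 for Cd68 (SE 0.16), 0.22 to 0.26 for the C1q chains, 0.12 for Trem2 (SE 0.29), 0.24 for Apoe (SE 0.29) and 0.53 for Lyz2 (SE 0.36). With 1 library left out the Lyz2 value was 0.11 to 0.83. Spp1 was at 2686, 1266 and 2546 CPM with DC-101 (log2 change 0.74, SE 0.43) and Gpnmb at 0.432, 2.03 and 6.88 CPM (-2.11, SE 1.03), both overlapping vehicle. The Gpnmb value was -1.02 without vehicle replicate 1 and -3.44 without DC-101 replicate 3.

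Low dose and DC-101 were compared directly as well. Differences were between -0.85 for Gpnmb (SE 1.06) and 0.46 for Spp1 (SE 0.46), the C1q chains at -0.43 to -0.53, and none passed by edgeR or reached an unadjusted p under 0.05 (0% and 8.45% of all genes), and DESeq2 and limma voom called none. These 2 treatments share the vehicle tumours above, so their values against vehicle are not independent.

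Anti-PD1 antibody, which releases T cells from the PD1 checkpoint, changed no member against vehicle by edgeR, DESeq2 or limma voom, and none at an unadjusted p under 0.05 (0% and 13.7% of all genes by edgeR). The log2 change was above 0 for 9 of the 10 genes, against 45.4% of all genes. C1qa was at 1011, 1611 and 521 CPM in vehicle and at 1654, 1024 and 1409.5 CPM with anti-PD1, overlapping (log2 change 0.38, SE 0.43). With 1 library left out the C1qa value was 0.058 to 0.84. Gpnmb, at 0.728, 1.94 and 2.51 CPM, was the member below 0, and each value was under each vehicle value, as 16.6% of all genes were without overlap (log2 change -1.36, SE 0.89).

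The vehicle tumours of this experiment had hepatocyte levels of 8.22 to 8.53 and the anti-PD1 tumours 4.74 to 6.32, so liver tissue moved with that comparison. With the hepatocyte level as a covariate, C1qa, C1qb and C1qc were at or below 0 (-0.0088, -0.0024 and -0.12). The combination against vehicle ranged from -0.10 for Trem2 (SE 0.43) to 0.48 for Adgre1 (SE 0.31), with none at an unadjusted p under 0.05 (0% and 8.2% of all genes by edgeR) and none called by DESeq2 or limma voom.

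Combination and anti-PD1 alone also differed in no member by edgeR (0% of all genes, 8.68% unadjusted), with none at an unadjusted p under 0.05 and none called by DESeq2 or limma voom. Trem2 was at 223, 129.8 and 169.9 CPM with anti-PD1 and at 96.2, 113 and 115 CPM with the combination. Each combination tumour was lower (30.4% of all genes did not overlap), with a log2 difference of -0.69 (SE 0.44, edgeR adjusted p = 0.709). Gpnmb was 1.49 higher on the log2 scale (SE 0.89), with overlap.

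To set the members beside the rest of the macrophage genes, the lists of related genes were read in the high-dose comparison, where 15.6% of all genes passed. In the macrophage core, 16 of 20 genes fell and none rose, with a median log2 change of -1.42. The scavenger receptor Msr1 (log2 change -2.80, edgeR adjusted p = 0.00136) and the integrin Itgam (-2.80, adjusted p = 0.0143) had the smallest p values, and only Mertk, a receptor for dead cells, was above 0 (0.70, adjusted p = 0.154). Of 9 measured monocyte genes 2 fell, the chemokine receptor Ccr2 (-3.05) and Plac8 (-1.09), and none rose, where 6.82% of all genes fell and 8.8% rose.

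In the lipid-associated list of 18 other genes, 2 rose and 3 fell, with a median of 0.20. The fatty-acid binding protein Fabp5 (log2 change 1.496, adjusted p = 0.0225) and the lipoprotein lipase Lpl (3.55, adjusted p = 0.0350) rose by edgeR, whereas the integrin Itgax (-1.63, adjusted p = 0.0216) and the protease inhibitor Cstb (-0.86, adjusted p = 0.0282) fell. No Kupffer cell gene of 10 passed by edgeR, 2 had an unadjusted p under 0.05, and the median was 1.08.

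Of 10 partners of C1q in the classical pathway 4 rose, 1 fell and 5 did not pass, with a median of 2.16. C1s1 (log2 change 2.51, edgeR adjusted p = 0.0322) and C1ra (1.82, adjusted p = 0.0446), the proteases that C1q activates, rose, and the integrin chain Itgb2, part of a complement receptor of myeloid cells, fell (-1.01, adjusted p = 0.0423). The liver is the main source of many complement proteins, and the hepatocyte genes had a median log2 change of 3.87 in this comparison, with 1 of 19 past the threshold (Cyp2e1, 5.41). Their part in the rise was not tested.

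Of 20 ligands and receptors that pair with the members, 2 rose, the cholesterol exporter Abca1 (1.23) and the Apoe receptor Vldlr (1.43), and 2 fell, the Trem2 signalling enzyme Plcg2 (-1.72) and the osteopontin receptor Cd44 (-0.85), together a share near the 15.6% of all genes. Markers of other cells moved beside these. T cell genes rose in 5 of 10 (median 1.65, Cd3e 1.86, Cd3g 1.69) and cholangiocyte and epithelial genes in 3 of 9 (median 1.92, Krt7 2.39, Krt19 2.604). Endothelial genes fell in 3 of 10 (median -0.48, Emcn -1.86, Cldn5 -1.86), dendritic cell genes rose in 2 and fell in 1 of 10 (Ccr7 2.20, Itgae 0.95, Cd207 -2.66), and no gene of 14 neutrophil and 10 fibroblast genes passed by edgeR, with 5 and 4 at an unadjusted p under 0.05.

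**Figure D3:**
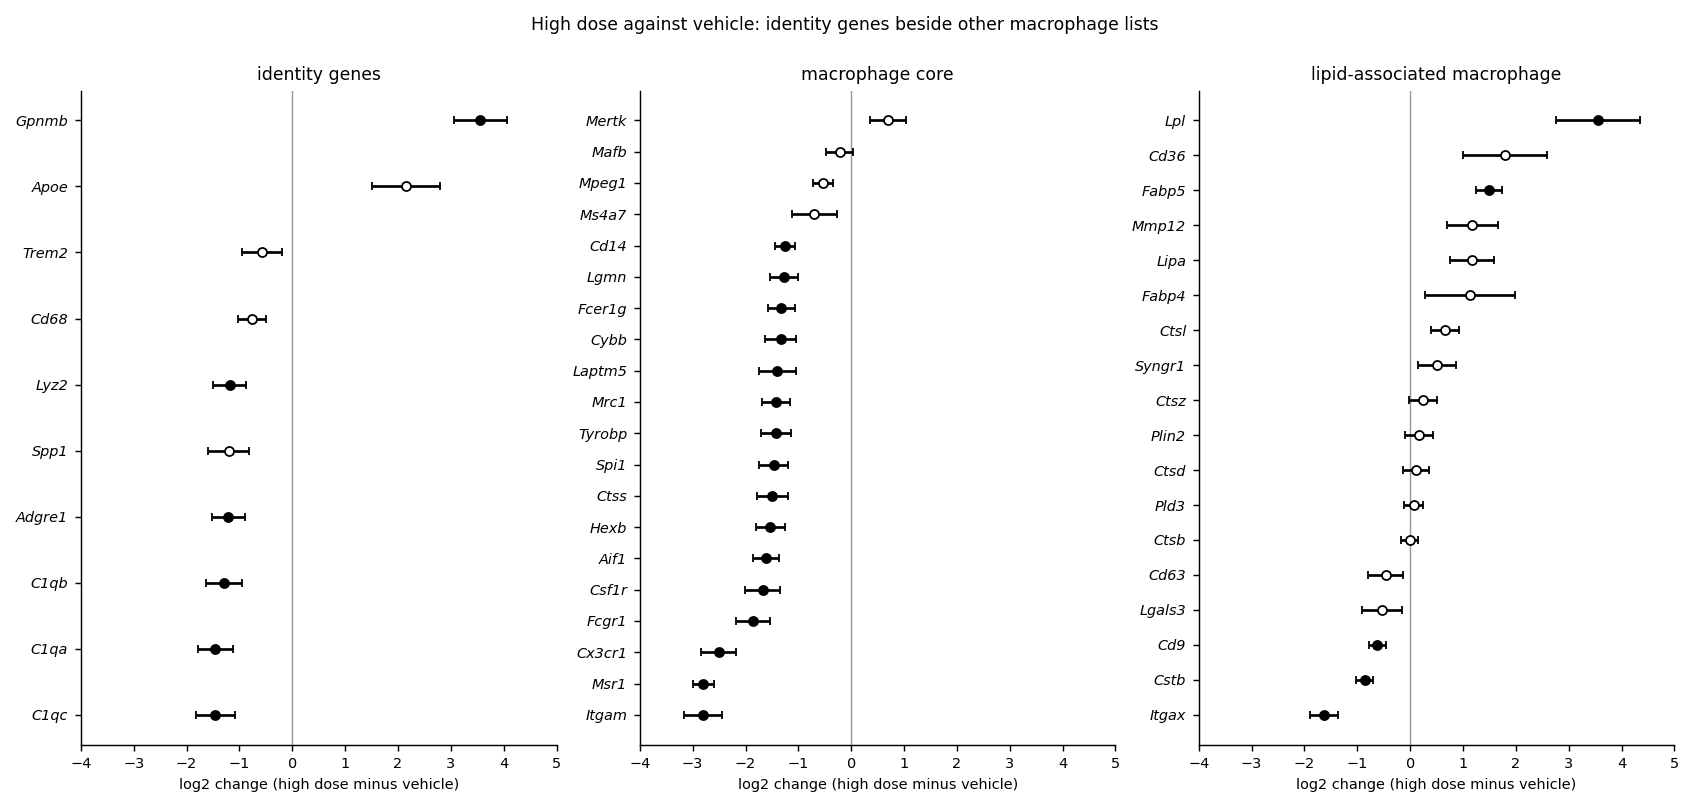
Log2 change at the high dose against vehicle for the members, the macrophage core and the lipid-associated list. Each gene has a point with bars of 1 SE, filled where the edgeR adjusted p was under 0.05. The macrophage core has its median at -1.42.

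At the low dose over the 3 experiments, where 1.77% of all genes passed by edgeR, the same lists were read. In the macrophage core Cd14, the endotoxin co-receptor (log2 change 0.71, edgeR adjusted p = 0.0307), and the Fc receptor Fcgr1 (0.73, adjusted p = 0.0405) rose, with a median of 0.31 over the 20 genes, and Ccr2 rose by 1.04 among the monocyte genes (adjusted p = 0.0493). In the lipid-associated list none rose and 2 fell, the fatty-acid binding protein Fabp4 (-1.73, adjusted p = 2.30e-04) and the lectin Lgals3 (-0.82, adjusted p = 0.0294). No complement partner passed by edgeR, and all 10 were above 0, as 54.5% of all genes were. Hepatocyte genes had a median of 1.28 with 1 of 19 past the threshold, and 7 of 10 endothelial genes fell.

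Each member was next expressed relative to the macrophage core of its own library, as log2 CPM minus the core level. The core level itself was 1.46 lower at the high dose than in vehicle. On this relative scale the differences of the group means were -0.06 for C1qa, 0.12 for C1qb, -0.07 for C1qc, 0.18 for Adgre1, 0.18 for Lyz2 and 0.26 for Spp1, and the groups overlapped. Cd68 (0.66), Trem2 (0.83), Apoe (3.13) and Gpnmb (4.63) were higher relative to the core in each high-dose tumour than in each vehicle tumour, as were 72.3% of all genes, whose median difference on this scale was 1.46. Cd68 and Trem2 lay below that median and Apoe and Gpnmb above it. At the low dose the core level was 0.58 higher than in vehicle. Relative to it Adgre1 (0.29), Lyz2 (0.38) and Apoe (0.90) were higher and Spp1 (-1.06) and Gpnmb (-1.53) lower without overlap, where 56% of all genes did not overlap and the median difference of all genes was -0.58. These differences are a description, since the core was described in the same libraries.

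**Figure D4:**
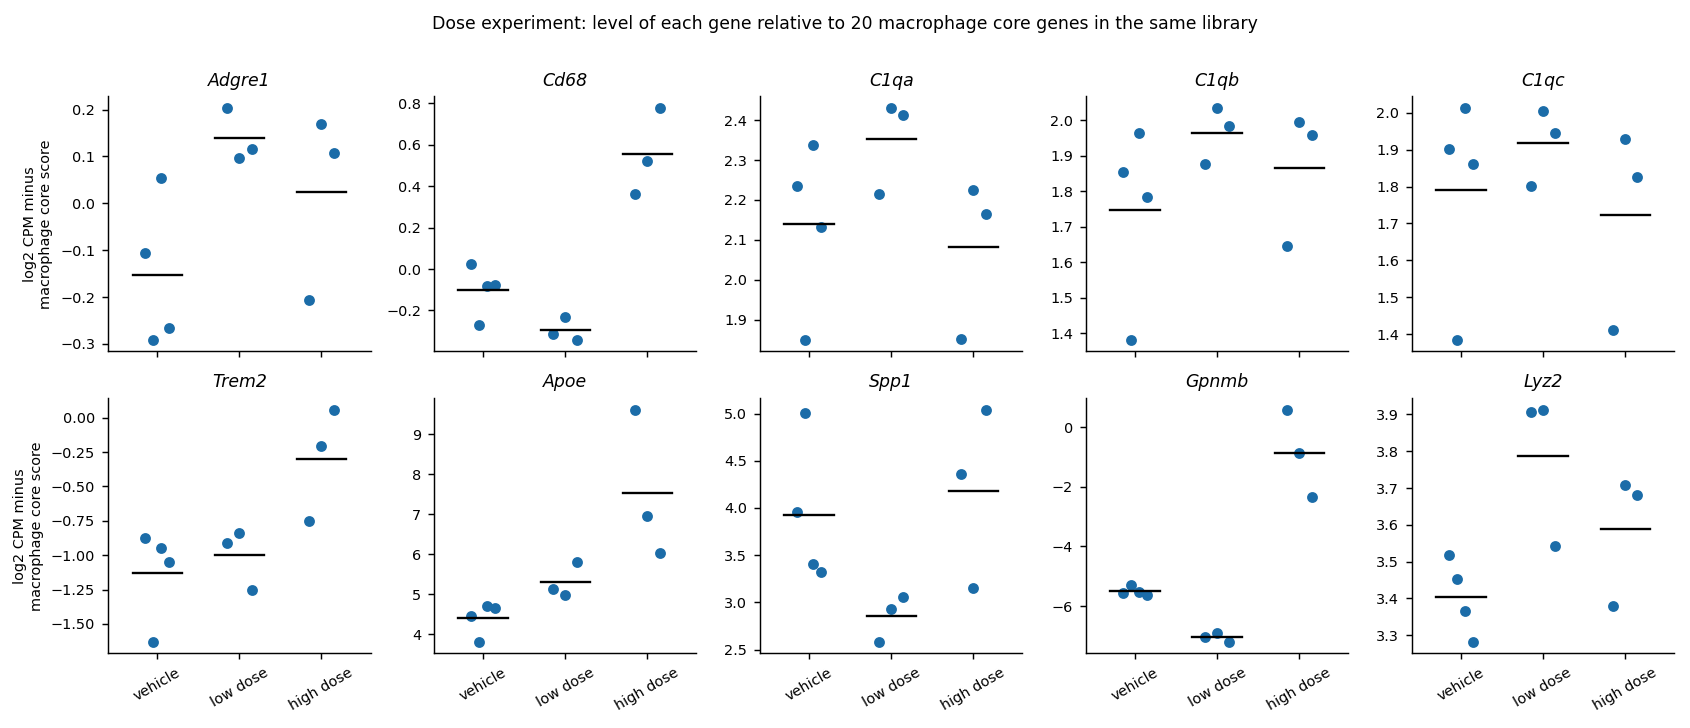
Log2 CPM of each member minus the macrophage core level of the same library, for the 10 tumours of the dose experiment, with 1 point per tumour and bars at group means. At the high dose the C1q genes keep the vehicle distance from the core, with differences of -0.07 to 0.12, and Gpnmb is 4.63 higher.

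Apart from treatment, tumours of the same group differed among themselves, and the members were compared in how they did so, using deviations of log2 CPM from the group mean over the 32 libraries. Of 45 pairs of members, 18 correlated at an adjusted permutation p under 0.05 (20 by Spearman's rho), and the median Pearson r was 0.26. C1qa and C1qb were the closest pair (r = 0.99, rho = 0.98, adjusted permutation p = 5e-05 for both, the smallest among the pairs), at 0.99 without the 2 tumours farthest from the median of C1qa and within each experiment.

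The receptor Trem2 followed the C1q genes, with r = 0.91 and rho = 0.90 against C1qa (adjusted permutation p = 5e-05 for both; 0.91 without the 2 farthest tumours) and 0.93, 0.93 and 0.89 inside the 3 experiments in the same order. Trem2 and Lyz2 correlated at r = 0.87 and rho = 0.89 (adjusted permutation p = 5e-05 for both; 0.85 without the 2 farthest; 0.89, 0.85 and 0.94 within experiments). Adgre1 and Cd68 correlated at r = 0.77 and rho = 0.73 (adjusted permutation p = 0.0007 and 0.00078; 0.67 without the 2 farthest), at 0.96, 0.70 and 0.54 within the experiments.

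Apoe, Spp1 and Gpnmb were in none of the 18 pairs. The largest negative values were those of Gpnmb with Lyz2 (r = -0.53, adjusted permutation p = 0.124) and Apoe with Spp1 (r = -0.50, adjusted permutation p = 0.075). All correlations share the TMM scaling of their library.

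**Figure D5:**
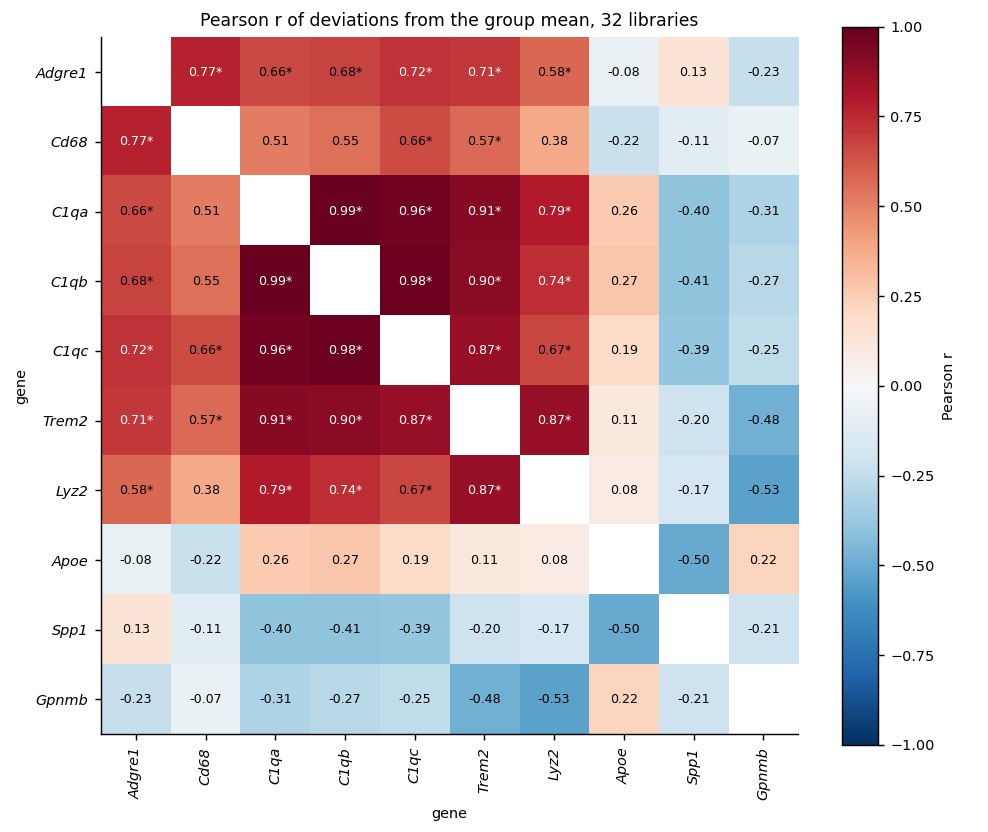
Pearson r of the deviations of log2 CPM from the group mean between each pair of the 10 members, over 32 libraries. C1qa, C1qb, C1qc, Trem2 and Lyz2 form the block of high values (C1qa with C1qb 0.99), whereas Apoe, Spp1 and Gpnmb stand outside it.

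The members were also compared in the same way with the mean level of each of the 13 lists of markers, in 130 pairs, of which 13 had an adjusted permutation p under 0.05 (10 by rho). The macrophage core correlated with Adgre1 (r = 0.87), Cd68 (0.65), C1qa (0.88), C1qb (0.89), C1qc (0.89), Trem2 (0.86) and Lyz2 (0.73). The Cd68 value did not pass by rho and was 0.93, 0.91 and 0.087 inside the 3 experiments. The neutrophil level correlated negatively with the C1q genes, Trem2 (-0.67, at -0.75, -0.82 and -0.62 inside the experiments) and Lyz2 (-0.63), and the cholangiocyte level with Lyz2 (-0.65). Apoe and the hepatocyte level had r = 0.43 and rho = 0.36 (adjusted permutation p = 0.177), at 0.71, 0.72 and -0.17 inside the 3 experiments in that order.

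The non-member genes whose deviations were most like those of each member were taken from 11236 genes, as a description over the 32 libraries. For the mean of the C1q genes they were Ctss (r = 0.95), Tnfaip8l2 (0.94) and Fcer1g (0.92), for Trem2 Tnfaip8l2 (0.95), Susd3 (0.95) and Tyrobp (0.94), and for Lyz2 Cd84 (0.94), Cyba (0.91) and Camk1 (0.90). Ctss, Fcer1g and Tyrobp are also in the macrophage core. Adgre1 was nearest to Pstpip1 (0.89), Cysltr1 (0.86) and Ncf4 (0.86), and Cd68 to Vsir (0.91), Bmp2k (0.88) and Tmem106a (0.87).

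The remaining members had other neighbours. Apoe was nearest to Hsd17b11 (0.90), Dcxr (0.89) and Ctsh (0.88), Spp1 to the chaperone Hsp90b1 (0.76), Wdr54 (0.74) and 2500002B13Rik (0.74), and Gpnmb to the matrix genes Thbs2 (0.88), Fmod (0.76) and Eln (0.74).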

How the data were processed

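RNA of 32 orthotopic BNL-MEA tumours was sequenced as read pairs from a stranded mRNA kit. Per the submitters' processing notes and the methods, the authors trimmed reads with cutadapt 2.4, aligned them to GRCm38 with STAR 2.7.2a and counted them by Gencode gene. The deposited files hold raw counts. Which strand column of STAR was they took is not given in the sources used here. Groups came from the sample labels. The members and the 13 marker lists were chosen with earlier results of these data known.

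Each experiment was fitted with all its groups in edgeR 4.0.16 (R 4.3.3): filterByExpr (minimum count 10, minimum total count 15), TMM, robust quasi-likelihood F-test, 2-sided, Benjamini-Hochberg adjustment over all genes tested, threshold 0.05. Log2 CPM used a prior count of 2. Alternatives were DESeq2 1.42.0, limma 3.58.1 with voom, other scalings, no filter, a hepatocyte covariate, a replicate block, only the groups compared, and each library left out. The edgeR script was tested on simulated data. Permutations of correlations (100000, 2-sided) were within groups. From each list at most 2 risen and 2 fallen genes are named, by smallest adjusted p, and for each member the 3 genes with the highest r.

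Libraries of a group differed by more than sampling noise (chi-square per degree of freedom 14.0 to 918.5 for 36 pairs), and no library was taken for a duplicate. The labels do not say whether replicates of a group are separate animals, so p-values measure the spread between these samples. The reads carried no molecular identifiers.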

Additional observations from a re-analysis of the deposited data

How the results depend on the processing

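In the high-dose comparison with vehicle, 6 members passed by edgeR. The count was 9 by DESeq2 and 6 by limma voom, 1 (Gpnmb) with total-count scaling, 1 (Gpnmb) without the filter, and 0 with the hepatocyte covariate, the replicate block or only the compared groups in the fit. Leaving out 1 library gave 0 to 8: 0 without vehicle replicate 1, 2, 3 or 4, 2 without high-dose replicate 1 and 8 without high-dose replicate 3. In high dose against low dose, also 6, the count was 2 (C1qa, Gpnmb) with total-count scaling, 0 with the replicate block or only the compared groups, and 0 to 7 with 1 library left out. DESeq2 called 2 members (Spp1, Gpnmb) instead of 0 at the low dose in the DC-101 experiment and 1 (Gpnmb) over all experiments, where leaving out 1 library gave 0 to 1, the latter without replicate 3 at the low dose, anti-PD1 experiment (Gpnmb). The causes were not tested.

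Same-number deviations correlated above 0.1 in 2 of 9 (dose), 4 of 9 (DC-101) and 6 of 18 (anti-PD1) pairs. The highest r was 0.67, between replicate 3 of vehicle and of DC-101. Pairs of different number were not taken as a reference, so these counts cannot show whether samples are paired. Apart from the counts above, the block reversed Gpnmb in the combination (-0.029).

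No direction reversed in 150 fits of the high-dose comparison with vehicle. In the other comparisons the direction reversed as follows. With the hepatocyte covariate they were Cd68 (0.070) and Apoe (-0.16) for DC-101, C1qb at the low dose in the anti-PD1 experiment (-0.30), C1qa (-0.0088), C1qb (-0.0024) and C1qc (-0.12) for anti-PD1, and C1qa (-0.033), Apoe (-0.0063) and Gpnmb (-0.57) for the combination. In the combination, Lyz2 was -0.0018 by DESeq2 and with its size factors, Gpnmb was -0.12 by voom, and Apoe was -0.0050 and Lyz2 -0.028 with only the compared groups. Over the 3 experiments, leaving out the dose experiment gave Cd68 -0.061, C1qa -0.20, C1qb -0.094, C1qc -0.20, Trem2 -0.025 and Apoe -0.33, and leaving out the DC-101 experiment gave Spp1 -0.024.

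With 1 library left out, these ranges crossed 0. For DC-101 they were Adgre1 -0.032 to 0.37, Apoe -0.051 to 0.48, Cd68 -0.16 to 0.12 and Trem2 -0.16 to 0.27. For the low dose in the DC-101 experiment they were Adgre1 -0.18 to 0.087, C1qb -0.31 to 0.024 and Cd68 -0.075 to 0.15. For the low dose in the anti-PD1 experiment they were C1qa -0.43 to 0.35, C1qb -0.29 to 0.42, C1qc -0.34 to 0.21, Cd68 -0.31 to 0.013, Lyz2 -0.53 to 1.45 and Trem2 -0.35 to 0.66. For anti-PD1 Apoe was -0.092 to 0.62. For the combination they were Apoe -0.35 to 0.35, C1qa -0.24 to 0.53, C1qb -0.044 to 0.67, C1qc -0.014 to 0.54, Gpnmb -0.60 to 0.54, Lyz2 -0.23 to 0.51 and Trem2 -0.35 to 0.16. Counting pairs by rho was chosen after seeing the data. Gpnmb, at 5 reads in its lowest library, is the member that depth limits most.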
